A study of Austrofundulus limnaeus and Nothobranchius furzeri and Aphyosemion australe with 30 samples.

Results

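In the South American killifish, 565 of 68977 accessible regions (0.819%) met a rule for peaks open throughout diapause. Each was more open in all 5 diapause libraries used than in all 4 development libraries used. Their mean levels at 6 days and 1 month of diapause lay within a loose limit of each other, less than 1 log2 unit. These peaks were chosen by their measured values. Each had every diapause library above every development library, mean log2 values at both diapause stages at least 1 above the larger of the Pre-Dia and Dev means, and diapause means less than 1 apart. The difference between diapause and development in these libraries is therefore a description of the peaks and was not tested.

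Diapause is a reversible arrest of embryonic development that lets annual killifish survive in dried mud, with a slowed heartbeat and a lowered metabolism. ATAC-seq reads open chromatin by letting the Tn5 transposase insert sequencing adapters where DNA is not wrapped in nucleosomes, so that promoters, enhancers and other regulatory elements stand out as peaks of reads. A peak that is open at both diapause stages marks DNA that is accessible early in the arrest and still accessible late in it. Which gene a peak acts on, if any, is not given by its accessibility.

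The series labels 30 samples of 4 killifish species, 14 of them from the South American killifish *Austrofundulus limnaeus*, a species with diapause. All libraries came from unmanipulated embryo bodies freed of yolk, about 10 pooled per sample and about 25000 nuclei, with no genetic change or drug. Pre-Dia embryos (2 libraries, replicates 1.5 and 2) carried a Kupffer's vesicle and, per the labels, 15 to 22 somites, and per the study's methods came from first clutches of young parents, most of which were expected to develop directly. Dev embryos (2 libraries, replicates 1.5 and 2) had not arrested, with a heartbeat above 60 per minute in the labels. Dia 6d embryos (3 libraries) and Dia 1m embryos (2 libraries) had been in diapause for 6 days and 1 month, with a heartbeat below 45 per minute. Pre-Dia and Dev are together called development here, although Pre-Dia embryos are younger than all others. A pool of embryo bodies cannot tell more cells with an open region from a region that is more open in each cell.

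Values are reads per peak divided by 1 factor per library, called normalized reads here. Total reads in peaks were 6.40 to 11.4 megareads per library except in Pre-Dia replicate 1.5, which held 2.99 megareads. No value was 0 in any library, so a value of 1 read was a floor that may stand for 0 reads. In Pre-Dia replicate 1.5, 1 read was worth 2.74 normalized reads, and 31 of the 565 peaks stood at 1 read. A total of 100 peaks held 3 or fewer reads there, against 0 to 5 peaks in each other library. Replicates differed by more than counting noise, with chi-square values per degree of freedom of 3.12 to 8.65 between libraries of a stage. The labels do not say whether replicates came from separate clutches, so the p-values given further on apply to these samples only. Those from the limma fit of all stages do not rest on the spread between Pre-Dia and Dev replicates alone. They also draw on the spread between diapause libraries and on a trend in spread over all peaks.

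The median of the 565 peaks was low in every development library and above that of all consensus peaks in every diapause library. It was 21.9 and 31.4 normalized reads in Pre-Dia replicates 1.5 and 2, and 27.2 and 26.1 in Dev replicates 1.5 and 2. In Dia 6d replicates 1, 2 and 3 it was 92.7, 76.8 and 69.2, and in Dia 1m replicates 2 and 3 it was 76.0 and 98.4. All consensus peaks had library medians of 59.5 to 63.0. The peaks were thus not sites of unusually strong signal. Their median over development libraries was 27.2 normalized reads, at the 6.90th percentile of all peaks, and their median over diapause libraries was 84.2, at the 65.0th percentile. A total of 465 lay below the median of all peaks in development, 380 lay above it in diapause, and 280 did both.

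**Figure D1:**
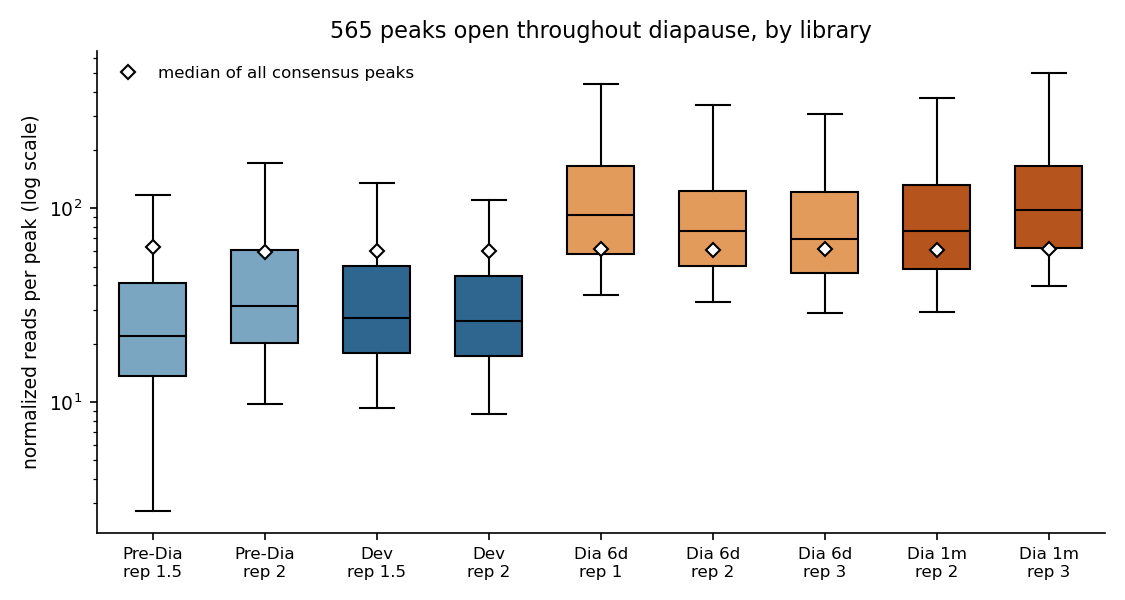
Normalized reads per peak (log axis) for the 565 peaks in each of the 9 libraries. Boxes span the quartiles with the median as a line, whiskers run from the 5th to the 95th percentile, and diamonds give the median of all 68977 consensus peaks, which lies above the box median in the 4 development libraries and below it in the 5 diapause libraries.

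The size of the rise varied among the peaks. The ratio of the mean over diapause libraries to the mean over development libraries had a median of 2.96 and ran from 1.96 to 7.98. On the log2(value + 1) scale the mean diapause minus development difference had a median of 1.57 (quartiles 1.37 and 1.83, highest 3.69). The gap used by the rule, from the larger development mean to the smaller diapause mean, had a median of 1.21 and a highest value of 2.58. It was 2 or more in 19 peaks, between 1.5 and 2 in 89 and under 1.5 in 457. Those 19 peaks had a median of 20.5 normalized reads in development and 132 in diapause, against 30.0 and 85.0 in the 457.

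Separation of all diapause from all development libraries was itself not rare. It was met by 3389 peaks, 4.91% of all, of which 602 also rose by the required size at both stages. The requirement that both diapause stages be less than 1 apart removed 37 of these, 35 of them higher at 1 month. The mirrored rule gave 176 peaks closed throughout diapause (0.255%), out of 3135 peaks with every diapause library below every development library. Both shares rest on the values that the rule used, so nothing was read from their sizes.

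Many peaks lay near the threshold. A total of 152 had a gap under 1.1, and 195 peaks that met the rest of the rule fell just short, with a gap between 0.9 and 1. Just inside were peak_55334 (NW_013953622.1, 88564 to 89094) and peak_19681 (NW_013952534.1, 880659 to 881453), both with a gap of 1.00. Just outside were peak_51617 (NW_013953319.1, 77642 to 77967) and peak_7108 (NW_013952430.1, 2465337 to 2465521), with gaps of 0.9986 and 0.9983. Peak_55334 held 110, 88.9, 63.9 and 72.4 normalized reads in the development libraries, and 339, 119, 194, 420 and 338 in the diapause libraries. Peak_51617 held 13.7, 37.9, 28.1 and 23.2, and then 78.2, 53.4, 47.8, 44.5 and 60.7. That the 2 states did not overlap in either peak was a condition of the choice.

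The 8 peaks with the largest gap show the pattern at its clearest. In the sentences on single peaks, values are normalized reads in Pre-Dia 1.5 and 2, Dev 1.5 and 2, then Dia 6d 1, 2 and 3 and Dia 1m 2 and 3, and coordinates are on the assembly Austrofundulus_limnaeus-1.0 as deposited. Peak_10065 (NW_013952451.1, 604591 to 605152) held 21.9, 91.5, 34.1 and 29.0 in development and 310, 292, 229, 231 and 345 in diapause. The lowest diapause library of this peak stood far above its highest development library, Pre-Dia replicate 2. Peak_17966 (NW_013952517.1, 1371474 to 1371779) held 5.48, 29.4, 32.4 and 4.34, then 94.9, 83.3, 67.9, 77.1 and 164. Its development libraries fell into a low and a higher pair that crossed the stages, Pre-Dia 1.5 with Dev 2 and Pre-Dia 2 with Dev 1.5. Peak_19641 (NW_013952534.1, 334014 to 334426) held 16.4, 83.0, 19.6 and 34.7, and then 269, 227, 165, 207 and 345. As in peak_10065, Pre-Dia replicate 2 was the highest of the development libraries.

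The next 3 in size had development values that lay close together. Peak_4117 (NW_013952416.1, 783136 to 783418) held 8.22, 7.19, 4.26 and 7.96 in development, which are 3 to 11 reads, and 68.1, 50.6, 25.1, 42.3 and 89.5 in diapause. Peak_42908 (NW_013952942.1, 279438 to 279702) held 27.4, 40.5, 34.9 and 30.4, then 294, 133, 140, 299 and 308. Here Dia 6d replicate 1 and both Dia 1m libraries stood at about the same level, well above Dia 6d replicates 2 and 3. Peak_14811 (NW_013952486.1, 1216718 to 1216886) held 8.22, 5.88, 7.66 and 7.96, and in diapause 59.2, 49.6, 26.4, 43.4 and 76.6. It is 169 bp wide, and its highest library, Dia 1m replicate 3, held 77 reads.

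The other two of the 8 differ in their lowest values. Peak_8846 (NW_013952442.1, 1347455 to 1347601) held 8.22, 8.49, 11.9 and 4.34 in development and 51.4, 58.1, 47.8, 36.9 and 55.7 in diapause, a tight group of diapause values. Peak_5791 (NW_013952424.1, 2390145 to 2390739) held 2.74, 43.8, 36.6 and 34.7, followed by 264, 165, 135, 141 and 241. Its Pre-Dia replicate 1.5 value is at the floor of 1 read, so the low Pre-Dia mean at this peak rests on that shallow library.

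**Figure D2:**
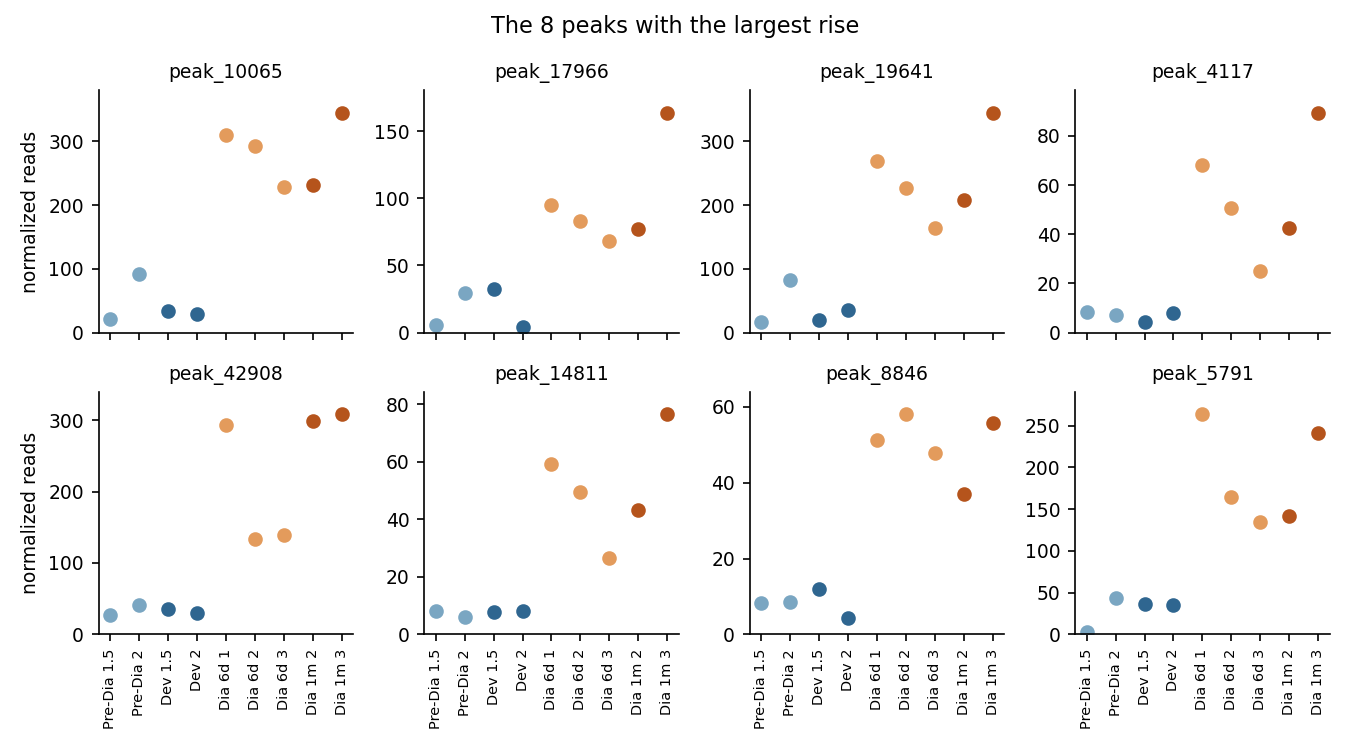
Normalized reads in each of the 9 libraries (linear axes from 0, scaled per panel) at the 8 peaks with the largest gap between diapause and development stage means. Light and dark blue points are Pre-Dia and Dev libraries, light and dark orange points are Dia 6d and Dia 1m libraries, and in each panel every orange point lies above every blue point.

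The 4 peaks with the most reads in diapause were open in development too. Peak_68637 (NW_013974274.1, 1 to 244) held 1478, 785, 1334 and 1043 normalized reads in development and 2906, 2043, 2274, 2553 and 2881 in diapause. It starts at the first base of its scaffold, and the fewest reads in a library were 539. Next came peak_65926 (NW_013958324.1, 1344 to 1697), with 524, 883, 352 and 351 against 1671, 1922, 1321, 1469 and 2171. Peak_51679 (NW_013953323.1, 76549 to 77139) held 285, 420, 335 and 259, then 895, 643, 664, 1396 and 1082. Peak_36432 (NW_013952780.1, 39472 to 40251) held 279.6, 542, 349 and 247, then 1102, 741, 839, 809 and 1157. In all 4 the change was a rise from an open state, with gaps of 1.01 to 1.25, rather than the opening of a closed region.

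At the other end stood peaks with few reads. Peak_35157 (NW_013952754.1, 126914 to 127042) held 4, 8, 4 and 12 reads in development and 26, 20, 23, 62 and 39 in diapause, before scaling. Peak_59855 (NW_013954272.1, 4714 to 4860) held 1, 8, 10 and 10 reads, then 38, 50, 13, 9 and 43. In the second, Dia 1m replicate 2 with its 9 reads lay close to the development libraries on the normalized scale (9.77 against 8.51 in Dev replicate 1.5), and 9 was the fewest reads of any diapause library at any of the 565 peaks. A total of 106 peaks had a development library at 3 or fewer reads, whereas 244 had 10 or more in every development library. Those 244 had a median of 53.3 normalized reads in development and 144 in diapause, with a median difference of 1.48 on the log2 scale. The 100 with 3 or fewer reads in Pre-Dia replicate 1.5 had a median difference of 1.90.

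Single libraries set the edge of the group. Among the 4 development libraries Pre-Dia replicate 2 was the highest in 265 peaks, Dev replicate 1.5 in 138, Pre-Dia replicate 1.5 in 85 and Dev replicate 2 in 77. Among the 5 diapause libraries Dia 6d replicate 3 was the lowest in 202, Dia 1m replicate 2 in 171 and Dia 6d replicate 2 in 150. Dia 6d replicate 1 and Dia 1m replicate 3 were the lowest in 30 and 12. When the rule was applied without 1 library at a time, it chose 422 to 854 peaks. The count moved by over 1.5 times only without Dia 1m replicate 2 (854 peaks, 535 of them among the 565). Without the shallow Pre-Dia replicate 1.5 the rule chose 433 peaks, of which 341 were among the 565, so that the others needed that library's low values.

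The 2 diapause stages were compared within the limit that the rule set on their difference. Dia 1m minus Dia 6d had a median of 0.10 on the log2 scale, and the Dia 1m mean was the higher in 358 peaks (63.4%), against 50.1% of all peaks. A total of 452 peaks had stage means within 0.5 of each other, 94 were over 0.5 higher at 1 month and 19 over 0.5 higher at 6 days. Both Dia 1m libraries exceeded all 3 Dia 6d libraries in 87 peaks and lay below them in 13. The counts by the limit of 0.5 and by library order were not taken over all peaks, so nothing was read from their sizes. In the 94 peaks the medians were 93.8, 65.6 and 61.6 normalized reads in the Dia 6d libraries and 117 and 122 in the Dia 1m libraries. In the 19 peaks they were 82.6, 97.4 and 81.7, against 38.0 and 78.6, so that the lower Dia 1m mean there lay mostly in replicate 2. The rule used all these values, and no test was made of them.

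Pre-Dia and Dev were compared to ask in which direction the peaks moved between the 2 development stages. The rule used the values of both stages but treats the 2 directions of their difference alike. Shares and calls by size are therefore a description. Dev minus Pre-Dia had a median of 0.005 on the log2 scale, and Dev was the higher in 286 of 565 peaks (50.6%), against 50.3% of all peaks. The stage means lay within 0.5 of each other in 417 peaks (73.8%), against 67.8% of all peaks. The SD of the difference was 0.543 among the 565 and 0.545 among all peaks. With limma on log2(value + 1) over all 68977 peaks, 3 of the 565 passed a Benjamini-Hochberg adjusted p of 0.05 (0.531%), all of them lower in Dev, against a background of 0.27% of all peaks (186, of which 114 were higher and 72 lower). With limma at an unadjusted p under 0.05 there were 45 of the 565 and 7450 of all 68977. At this threshold the share was lower among the 565 than among all peaks, the reverse of the order at the adjusted threshold.

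**Figure D3:**
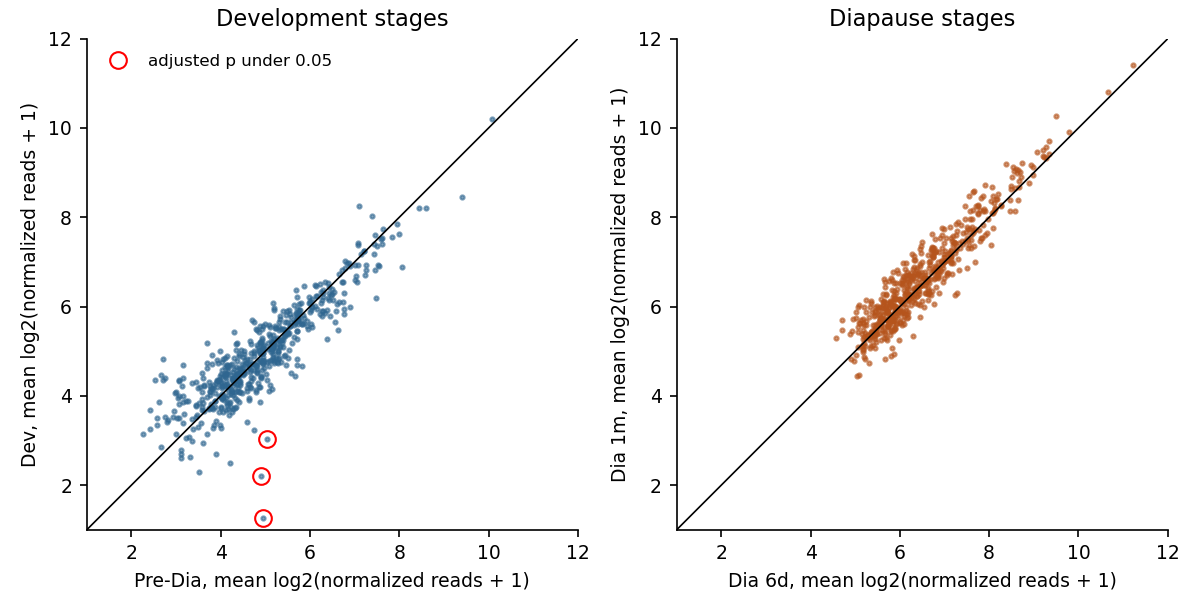
Mean log2(normalized reads + 1) of each of the 565 peaks at Dev against Pre-Dia (left, 2 libraries each) and at Dia 1m against Dia 6d (right, 2 and 3 libraries), with the line of equal values. Red circles mark the 3 peaks past an adjusted p of 0.05 between Dev and Pre-Dia, all below the line, and the diapause points lie within 1 of the line because the rule required it.

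The 3 peaks called between the development stages were nearly closed in Dev. Peak_65749 (NW_013958021.1, 1704 to 2009) held 43.9 and 20.3 normalized reads in Pre-Dia. In Dev it held 0.851 and 2.17, which are 1 read (the floor) and 3 reads. In diapause it held 82.6, 208 and 218 at 6 days and 73.8 and 83.5 at 1 month. The Dev libraries lay far below all others, and Dia 6d replicates 2 and 3 far above. Its log2 difference between Dev and Pre-Dia was -3.67 (limma SE 0.49, adjusted p = 6.06e-05). Peak_65747, on the same scaffold (161 to 310), held 35.6 and 23.5 in Pre-Dia, 2.55 and 5.07 in Dev, 88.2, 206 and 184 in Dia 6d and 67.3 and 84.5 in Dia 1m. Its libraries stood in much the same order, and the difference was -2.69 (limma SE 0.46, adjusted p = 0.00241). Peak_65748 lies between them (1476 to 1608) and held 21.9 and 13.7 in Pre-Dia, 4.26 and 5.07 in Dev, 51.4, 104 and 88.0 in Dia 6d and 38.0 and 40.8 in Dia 1m. It had the same low Dev values without being among the 3 called.

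The third call was peak_20349 (NW_013952541.1, 1210740 to 1210914), with 35.6 and 28.8 normalized reads in Pre-Dia and 10.2 and 5.07 in Dev. In diapause it held 137, 103 and 49.0 at 6 days and 166 and 184 at 1 month. The difference between Dev and Pre-Dia was -2.00 (limma SE 0.44, adjusted p = 0.0316). It was past the threshold in 11 of 18 alternative fits, with adjusted p-values from 0.00454 to 0.552, and peak_65747 and peak_65749 were in 16 and 17 of 18, with adjusted p-values from 9.55e-05 to 0.563 and from 1.15e-08 to 0.569. All 3 were lower in Dev in each of the 18 fits, but most fits took the difference from the same Pre-Dia and Dev libraries. The shared direction was therefore largely fixed and is no check of it. A fit of the Pre-Dia and Dev libraries alone ended all 3 calls, with adjusted p-values of 0.569 for peak_65749, 0.563 for peak_65747 and 0.552 for peak_20349. The number of calls also depended on single libraries. With 1 diapause library left out it was 2 to 4, where 0.101% to 0.307% of all peaks were called. It moved further when some Pre-Dia or Dev libraries were left out. Such a fit leaves 1 library in that stage, so its number of calls is not given.

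A second, smaller table of the same species held 17343 peaks and 1 library each of Pre-Dia, Dev and Dia 1m, normalized separately by the authors. Its libraries were first compared with the 9 above, over 6876 peak pairs that overlapped by at least 90% of each peak. The Dev library had the reads of Dev replicate 2, with a chi-square per degree of freedom of 0.00988 and a median ratio of reads of 1, and was counted as the same sample. The Pre-Dia library is labelled as replicate 1, a sample of its own. It was closest to Pre-Dia replicate 1.5 (chi-square per degree of freedom 3.36, at 0.590 of its reads). Over 17066 peaks that overlapped by at least 1 bp, its log2 values correlated at 0.924 with Pre-Dia replicate 1.5 and 0.727 with Pre-Dia replicate 2. This likeness was not ranked against that of replicates of a stage, whose chi-square values come from other peaks and depths. The Dia 1m library differed from all 9 (14.8 or more) and was the only one that clearly did not enter the choice of peaks. It was shallow, with 0.744 megareads in peaks and 5.04 normalized reads per read.

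In the smaller table the values of the matched peaks are given as a description. A match was a shared stretch of 1 bp or more, and 84 of the 565 peaks (14.9%) had one, against 24.7% of all peaks. The Dia 1m value was the highest of the 3 libraries in 83 of the 84 (98.8%), against a background of 39.3% of all matched peaks. It was at least 1 log2 unit above both others in 66 (78.6%), with a background of 8.21%. The median values of the 84 peaks were 36.0 in Pre-Dia, 42.1 in Dev and 116 normalized reads in Dia 1m, whereas those of all matched peaks in the development libraries were 82.7 and 82.9.

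These counts were in part fixed by how the peaks were chosen. The rule had taken peaks that were low in the same Dev library, and a peak that is weak in development could enter the smaller table mainly through its Dia 1m library, and had to be high there. The background of all matched peaks corrects for neither, so the counts support nothing about the 565 peaks. The rule was therefore also applied without Dev replicate 2 and Pre-Dia replicate 1.5, an alternative chosen after seeing the data. It then gave 516 peaks, 278 of them among the 565, and 70 had a match. The Dia 1m library was the highest in 49 of the 70 (70.0%) and at least 1 log2 unit above both others in 29 (41.4%). The medians were 46.7 in Pre-Dia, 42.3 in Dev and 95.7 in Dia 1m, so that these peaks too were weak in development and their counts have the same limit of entry into the table. With 1 library per stage there is no replicate check, and no test was made.

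**Figure D4:**
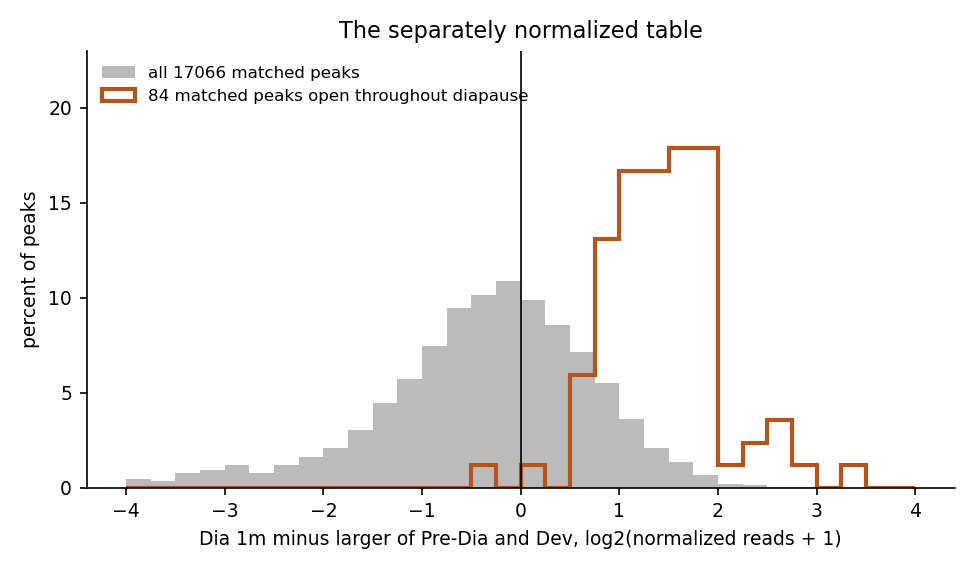
Percent of peaks by the Dia 1m value minus the larger of the Pre-Dia and Dev values on the log2(normalized reads + 1) scale in the separately normalized table, 1 library per stage. The outline gives the 84 matched peaks open throughout diapause, 83 of them right of 0, and the grey bars give all 17066 matched peaks, of which 39.3% lie right of 0. The Dev library is the same sample as Dev replicate 2 of the larger table.

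The 6 matched peaks with the largest gap give the values behind this count. In the smaller table peak_23289 (NW_013952577.1, 691072 to 691598) held 10.7 normalized reads in Pre-Dia, 24.2 in Dev and 85.6 in Dia 1m, and peak_59086 (NW_013954125.1, 39129 to 39813) held 13.3, 21.1 and 111. Peak_25191 (NW_013952599.1, 874516 to 875113) held 29.4, 44.8 and 90.7, the smallest step of the 6. Peak_47219 (NW_013953089.1, 9631 to 10721) held 48.0, 63.6 and 222. Peak_19673 (NW_013952534.1, 816577 to 817113) held 40.0, 23.3 and 126, and was the only one of the 6 with Pre-Dia above Dev. Peak_24833 (NW_013952594.1, 124113 to 124787) held 29.4, 35.8 and 272, the widest step of the 6.

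In the larger table the same 6 peaks were 527 to 1091 bp wide. Peak_24833 held 110, 289, 72.4 and 71.7 normalized reads in development and 854, 682, 460, 518 and 898 in diapause. Peak_23289 held 35.6, 80.4, 61.3 and 58.6, and then 377, 297, 229, 271 and 502. The single matched peak that was not highest in Dia 1m was peak_65738, with 98.8 normalized reads in Pre-Dia, 65.4 in Dev and 70.5 in Dia 1m. It was named after its values were seen.

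The peaks were narrower than consensus peaks in general, a property the rule did not use. Their median width was 315 bp, against 379 bp for all peaks, and 20.7% were under 200 bp wide, against 10.3% of all. The 95% interval of the median from order statistics was 297 to 338. It takes the peaks as independent, although the same libraries chose all of them, and so leaves out the spread between libraries. Peaks chosen without Pre-Dia replicate 1.5 or without Dia 6d replicate 1 had medians of 293 and 294 bp, outside this interval. Width rises with the number of reads in a peak, so widths were also set side by side within 4 classes of equal size by mean level over the 9 libraries. From the lowest to the highest class the medians were 189, 284.5, 385 and 600 bp for the 565 peaks and 240, 342, 472 and 676 bp for all peaks. They were narrower in each class. The 176 peaks closed throughout diapause had a median width of 384.5 bp. The 117 peaks under 200 bp had a median of 15.4 normalized reads in development and 47.6 in diapause, and the 121 of 500 bp or more had 71.6 and 231, with similar median ratios of 3.01 and 2.83.

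Peaks that lay near one of the 565 also had higher values in diapause, although they had not been chosen. The 867 other peaks within 10 kb had a median diapause minus development difference of 0.42 on the log2 scale, and 79.5% lay above 0. All 68412 other peaks had a median of 0.01, with 50.9% above 0. The difference was smaller with distance. Its median was 0.71 under 1 kb (110 peaks), 0.44 from 1 to 5 kb (362), 0.34 from 5 to 10 kb (395), 0.27 from 10 to 50 kb (2450) and 0.05 at 50 kb or more (20221). On scaffolds without any of the 565 it was -0.03 (44874 peaks). The diapause libraries all lay above the development libraries in 25.5% of the other peaks under 1 kb away, in 13.3% of those within 10 kb and in 4.13% of all others. Neighbours share the 9 libraries with the peaks that were chosen, and the part of these shared libraries in the pattern was not tested.

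**Figure D5:**
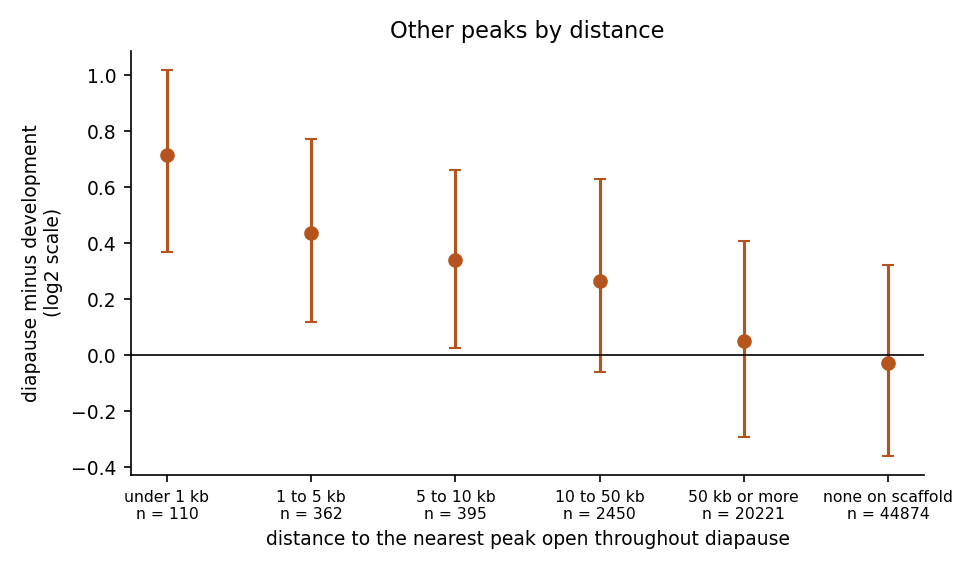
Diapause minus development difference (mean log2 scale) of peaks outside the 565 by distance to the nearest of them on the same scaffold. Points are medians, bars span the quartiles and n is the number of peaks. The medians go from 0.71 under 1 kb to -0.03 on scaffolds with none.

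The 565 peaks were spread over 349 of 6816 scaffolds, and 240 were the only one on their scaffold. A total of 56 (9.91%) had another within 10 kb, against 1.27% of the other peaks, and these 56 formed 26 runs, 23 of them pairs. The longest run held 4 peaks within 2491 bp on NW_013952819.1 (403936 to 406426), with no other consensus peak between them. Peak_38373 held 11.0, 29.4, 17.0 and 15.2 normalized reads in development and 49.1, 54.3, 56.6, 38.0 and 61.7 in diapause. Peak_38374 held 2.74, 20.3, 25.5 and 8.69, then 41.3, 62.7, 54.1, 43.4 and 51.7. The mean differences were 1.52, 2.08, 1.42 and 1.51 for peak_38373, peak_38374, peak_38375 and peak_38376. The rule required a rise of each of the 4 peaks, so their common rise was fixed by the choice. Dia 1m replicate 2 was the lowest diapause library in 3 of them and Dia 6d replicate 1 in peak_38374.

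The other runs of 3 were the scaffold NW_013958021.1 described above, whose peaks were nearly closed in Dev, and a stretch of 14061 bp on NW_013952434.1 (2485680 to 2499740). There peak_7779 held 35.6, 67.3, 44.3 and 50.7 in development and 132, 130.2, 81.7, 95.6 and 136 in diapause. Peak_7780 held 68.5, 80.4, 69.0 and 44.9, then 209.9, 224, 128, 152 and 298. Peak_7783 held 8.22, 31.4, 23.8 and 17.4, then 49.1, 49.6, 32.7, 34.7 and 58.7. Dia 6d replicate 3 was the lowest diapause library in all 3. The 2 other peaks in this stretch, not among the 565, had a median difference of 0.65. The scaffold with the most of the 565 was NW_013952436.1, with 9 among its 264 peaks (3.41%), and 211 of its 255 other peaks were higher in diapause, with a median difference of 0.31. On NW_013952641.1, with 6 among 76 peaks (7.89%), 41 of the 70 others were higher, with a median of 0.23.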

How the data were processed

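ATAC-seq libraries were made from embryo bodies freed of chorion, enveloping layer and yolk. By the methods given, the authors used Trim Galore (0.4.1) for trimming, Bowtie2 (2.2.5) for alignment, Picard (2.22.1) and SAMtools (1.5) to drop duplicates and low-quality alignments, deepTools (3.2.1) for the Tn5 shift and MACS2 for peak calling. The deposited values are a normalized signal, reads in each peak over a single factor for each library, although named RPKM. All were whole multiples of 1 read within 0.01 reads. The rule took the 9 libraries of the larger South American killifish table without (NA) in the column name, and 4 further columns of it were not used. Further labelled samples of Pre-Dia, Dev and Dia 1m are not among the 9.

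Stage means were taken of log2(value + 1), which understates the change of peaks with few reads. Dev was compared with Pre-Dia by limma (3.58.1, R 4.3.3, trended prior, 4 groups, two-sided, Benjamini-Hochberg over all peaks), and alternatively by edgeR (4.0.16) and DESeq2 (1.42.0) on the recovered reads of 8 libraries, without Dia 1m replicate 3. The limma step was also run on simulated counts with a single dispersion for all peaks and libraries. The real replicates differ in spread, so that run has no bearing on the calls given here. Peaks of the 2 tables were matched by at least 1 bp. Distances are edge to edge within a scaffold, and widths count both end positions.

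The peaks and all lists were chosen with earlier results of these data known. Named are the 8 peaks with the largest gap, the 4 highest in diapause, 2 on each side of the threshold, those called between Dev and Pre-Dia, the 6 matched with the largest gap, the runs of 3 or more and the 2 with the fewest development reads. Gene positions, gene lists, motifs and base composition were not analysed here. Alternatives covered the pseudocount, scaling, a filter on low values, each library left out, the limits of the rule, the overlap and the distance.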

Additional observations from a re-analysis of the deposited data

How the results depend on the processing

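The median difference between diapause and development was 1.43 to 1.71 under its 14 alternatives, a range that the rule's minimum rise largely fixed and that says nothing about stability. The number of peaks open throughout diapause was 1046 with a rise of at least 0.8 and 288 with a rise of at least 1.2 in place of 1, 435 with a pseudocount of 5 and 501 after quantile normalization, of which 429 and 460 were among the 565. It ranged from 422 to 854 with 1 library left out. Calls between Dev and Pre-Dia numbered 4 with edgeR (388 of all peaks, 0.563%) and 2 with DESeq2 (183 of all, 0.265%). There were 0 when limma was fitted to the Pre-Dia and Dev libraries alone (111 of all, 0.161%). In that limma fit 17 of the 565 and 5164 of all 68977 had an unadjusted p under 0.05, a lower share among the 565. With 1 library left out the calls numbered 1 to 32 (9 without Pre-Dia replicate 1.5). Pre-Dia and Dev share the replicate numbers 1.5 and 2, and the deviations of these libraries from their stage means correlated at -0.09. For the other stage pairs with a common number the correlation was between -0.17 and 0.18. With 2 libraries in each of Pre-Dia and Dev the deviations mirror each other, so this cannot decide whether the numbers pair the libraries. Limma with the replicate number as a block called 4 (241 of all, 0.349%). Among peaks with a mean of at least 50 normalized reads the median width was 415 bp, against 500 bp for all such peaks, and for the chosen peaks it was 293 bp without Pre-Dia replicate 1.5, 327 bp without Dev replicate 1.5 and 294 to 321 bp without any other single library. Neighbours within 50 kb had a median difference of 0.31, and those within 10 kb 0.36 to 0.53 with 1 library left out. An overlap of at least 50% of each peak left 51 matched peaks, with Dia 1m highest in 50 and at least 1 log2 unit higher in 40. Choosing peaks without the 2 libraries most like those of the smaller table left 70 matched peaks at 1 bp or more. In these Dia 1m was highest in 49 (background 39.3%) and at least 1 log2 unit higher in 29 (background 8.21%). The limit of entry into the smaller table applies here too. The cause of these changes was not tested. Gene starts, motifs and GC content were not run. Groups of 2 or 3 libraries and 2.99 megareads in Pre-Dia replicate 1.5 limit the precision.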

Other observations

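Of the 176 peaks closed throughout diapause by the mirrored rule, 64 had a match in the smaller table. The Dia 1m library was the highest of the 3 in 0 of these, against 39.3% of all matched peaks. It was the lowest in 61, which was not counted over all matched peaks. As for the open peaks, the rule had used the same Dev sample, and which peaks entered the smaller table bears on the counts. They therefore support nothing about the closed peaks.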
